A study of Mus musculus with 19 samples.

Results

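The integrated stress response genes described here are 10 transcripts of the ATF4 and CHOP pathway, Atf3, Atf4, Ddit3, Trib3, Sesn2, Chac1, Asns, Ppp1r15a, Ddit4 and Nupr1. They were found by mouse symbol among 33919 gene identifiers of a single expression table, and all 10 were present. RNA-seq of sorted Kupffer cells, the macrophages that live in the liver sinusoids, gave 19 libraries from wild-type female C57BL/6 mice whose ages are not given. Chow_EmKCs (n = 6) were embryo-derived Kupffer cells, sorted as CLEC2+ TIMD4+, from mice on chow. MCD_EmKCs (n = 6) were cells of that same gate from mice kept for 4 weeks on MCD, a diet lacking methionine and choline that is widely used to bring about steatohepatitis. MCD_MoKCs (n = 7) were monocyte-derived Kupffer cells, sorted as CLEC2+ TIMD4-, from mice on MCD. Origin rests on the sort gate in both diets, and there were no monocyte-derived cells from chow-fed mice, so diet and origin cannot be told apart between MCD_MoKCs and Chow_EmKCs. Nothing in the labels says which libraries came from separate animals, so the p-values measure the spread between these samples.

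In the integrated stress response, kinases that sense amino acid shortage, unfolded protein in the endoplasmic reticulum, viral RNA or heme shortage and mitochondrial stress phosphorylate the translation factor eIF2alpha. General protein synthesis then falls, while a few messages, Atf4 foremost, are translated more. ATF4 is a bZIP transcription factor that switches on genes for amino acid supply and for further regulators, among them Atf3, Ddit3 (CHOP), Trib3 and Ppp1r15a (GADD34), whose product dephosphorylates eIF2alpha and closes the loop. Much of ATF4's own control is translational, which RNA levels do not show.

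ATF4 pairs with C/EBP proteins on composite DNA elements, and ATF and CREB proteins bind a palindromic site, so the promoters of the 10 genes were searched for the letters of both. The sequences are RefSeq's for GRCm38.p6, from 250 bases before to 50 bases after the transcription start, counted with the start as +1. The core TGATGNAA was present on either strand in 5 of the 10 promoters and in 3.97% of all 32851 mouse promoters of the same length. The full ATF/CRE site TGACGTCA was present in 1 of the 10 and in 1.79% of all. The 6 matches are shown as letters only, 5 of the core and 1 of the ATF/CRE site. The members were listed beforehand as genes of the ATF4 and CHOP pathway, so their share with the core is a description. Each is printed 5′ to 3′ on the strand of its gene, with the match in capitals and 10 bases on each side.
Atf3: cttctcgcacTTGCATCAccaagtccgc
Nupr1: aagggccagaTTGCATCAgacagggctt
Chac1: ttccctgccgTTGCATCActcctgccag
Asns: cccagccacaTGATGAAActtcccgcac
Trib3: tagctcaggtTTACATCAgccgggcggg
Ppp1r15a: gcctctccggTGACGTCAgcacagcgcc
The Atf3 window is chr1:191183426-191183453 (minus strand, match at -110 to -103). That of Nupr1 is chr7:126625563-126625590 (minus strand, also -110 to -103). Both windows lie well inside the GENCODE spans of these genes, which on the minus strand begin at 191218039 and 126630861. Their positions therefore count from a RefSeq start within the span. The Chac1 window is chr2:119351039-119351066 (plus strand, -193 to -186), and the Asns window is chr6:7693215-7693242 (minus strand, -23 to -16). The Trib3 match is at +15 to +22 of the RefSeq start, in chr2:152344029-152344056 (minus strand), which places it upstream of the GENCODE start of Trib3 at 152344032. Window ends of 9 of the 10 genes were found in a GENCODE transcript of the gene, Trib3 being the exception. The Ppp1r15a window is chr7:45526263-45526290 (minus strand, -12 to -5). In Atf3, Nupr1, Chac1 and Trib3 the core reads on the strand opposite to the gene, so its reverse complement is what stands in capitals. Atf4, Ddit3, Sesn2 and Ddit4 held neither set of letters in this window, which says only that. A match is a description of letters and not a binding site, and no binding was measured in these samples.

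The libraries held 11642240 to 30983487 reads on genes, and 14643 to 16847 genes had at least 1 read. Values are normalised reads, that is, reads divided by a size factor for each library. The 12 Kupffer cell markers listed were all detected in every library, and Timd4, the gene of the gate, was at 8423 to 13558 in Chow_EmKCs, 6584 to 8501 in MCD_EmKCs and 258 to 743 in MCD_MoKCs. Mitochondrial transcripts took 0.511 to 1.05% of reads in Chow_EmKCs, 0.155 to 0.317% in MCD_EmKCs and 0.244 to 0.729% in MCD_MoKCs, where libraries 1 to 3 (0.534 to 0.729%) stood apart from libraries 4 to 7 (0.244 to 0.359%). The numbers in the column names also fall into a set up to 33 and a set from 37, so differences are given within both sets as well. Since these are bulk samples, fewer cells expressing a gene and less of its RNA per cell cannot be told apart.

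The 10 genes differed widely in level per exon length. In Chow_EmKCs the order per kb of exon was Ppp1r15a (7546 ± 1964 normalised reads per kb, SD, n = 6), Atf3 (4453 ± 1260), Atf4 (873 ± 138), Ddit3 (457 ± 109), Sesn2 (445 ± 84.8), Nupr1 (213 ± 44.2), Ddit4 (102 ± 62.4), Trib3 (31.3 ± 63.8) and Chac1 (0.442 ± 1.08), with Asns at 0. Ddit3 and Sesn2 were level within their spread, and all Atf3 values exceeded all Atf4 values. The ranges of Ppp1r15a and Atf3 overlapped, although Ppp1r15a was above Atf3 within each Chow_EmKCs library. In MCD_EmKCs Ppp1r15a (12168 ± 880 per kb, n = 6) also lay above Atf3 (6906 ± 775) in every library, and there the ranges did not overlap. In MCD_MoKCs these levels were 9838 ± 2678 and 9448 ± 962 per kb (n = 7), a difference smaller than the SD. Thus the feedback phosphatase subunit and Atf3 were the abundant members in all 3 groups, while the messages of the amino acid and glutathione enzymes Asns and Chac1 were the scarcest or near it.

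**Figure D1:**
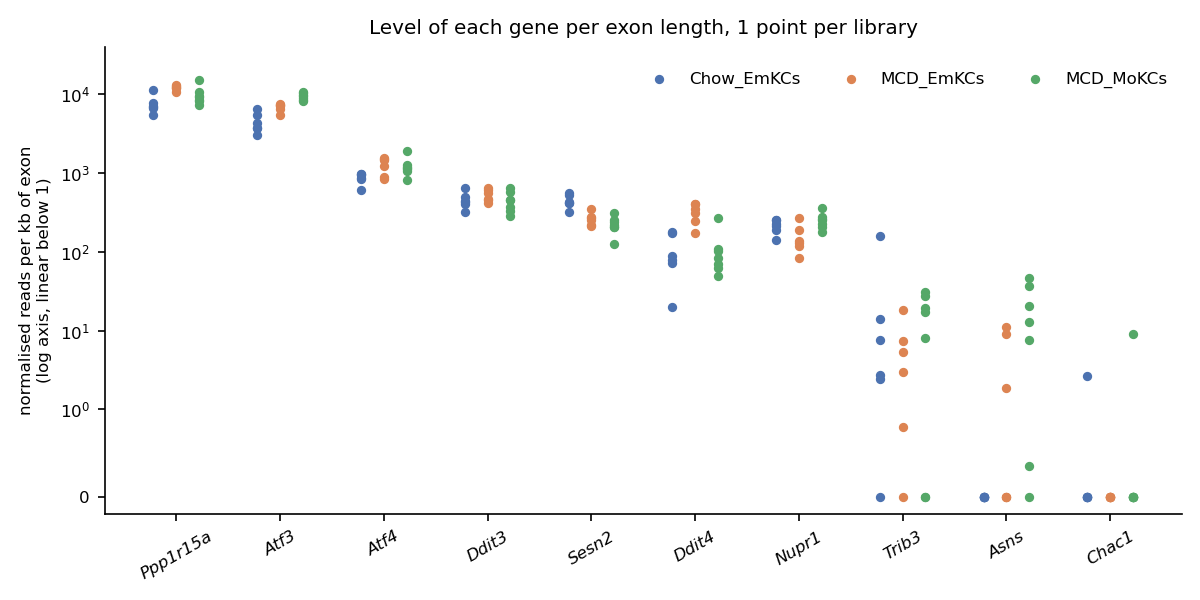
Normalised reads per kb of exon (log axis, linear below 1) for the 10 genes, 1 point per library, coloured by group. Ppp1r15a and Atf3 sit at the top in each group, and Asns is at 0 in all 6 Chow_EmKCs libraries.

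The comparisons between groups were made, each across all 14875 genes with enough signal, using limma on log2(normalised reads + 1) and Benjamini-Hochberg adjustment over all of them. Of the 10 members 9 were tested. Chac1 was too low, and Asns and Trib3 entered although several of their libraries were at 0. Asns, without a read in Chow_EmKCs, entered only through libraries of the MCD groups. The comparisons share groups with one another, so their results are set side by side and not as separate evidence.

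The first comparison asks what MCD feeding did to embryo-derived Kupffer cells. Between MCD_EmKCs and Chow_EmKCs, Ppp1r15a, Atf3 and Ddit4 rose and Sesn2 fell, which makes 4 of 9 members tested, beside 4.08% of all genes tested (2.5% higher and 1.58% lower). The median log2 fold change of the 9 was 0.50, and that of all genes was -0.04. None of the 9 separated the groups without overlap, which 2.96% of all genes did (1.55% higher and 1.41% lower). Atf4, Ddit3, Trib3, Asns and Nupr1 did not pass the threshold of 0.05.

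The second comparison sets the cells of different origin side by side within MCD-fed mice. Between MCD_MoKCs and MCD_EmKCs, Atf3 and Nupr1 rose and Ddit4 fell, 3 of 9 members, beside 10.5% of all genes tested (5.64% higher and 4.9% lower). The median log2 fold change of the 9 was -0.04 and that of all genes 0.02. Atf3 alone among them did not overlap between the groups, which held for 4.86% of all genes (2.62% higher and 2.25% lower). With edgeR on the recovered reads only Ddit4 passed, and Atf3 and Nupr1 had adjusted p of 0.0649 and 0.0823.

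The third comparison spans both diet and origin. Between MCD_MoKCs and Chow_EmKCs, Atf3 and Asns rose and Sesn2 fell, 3 of 9 members, beside 16.8% of all genes tested (8.68% higher and 8.08% lower). Asns is among the members tested only through its values in the MCD groups, so its call against chow is not independent of the filter. The median log2 fold change was 0.24 for the 9 and -0.01 for all genes. Atf3 and Sesn2 did not overlap between the groups, as was so for 7.97% of all genes (4.48% higher and 3.5% lower).

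**Figure D2:**
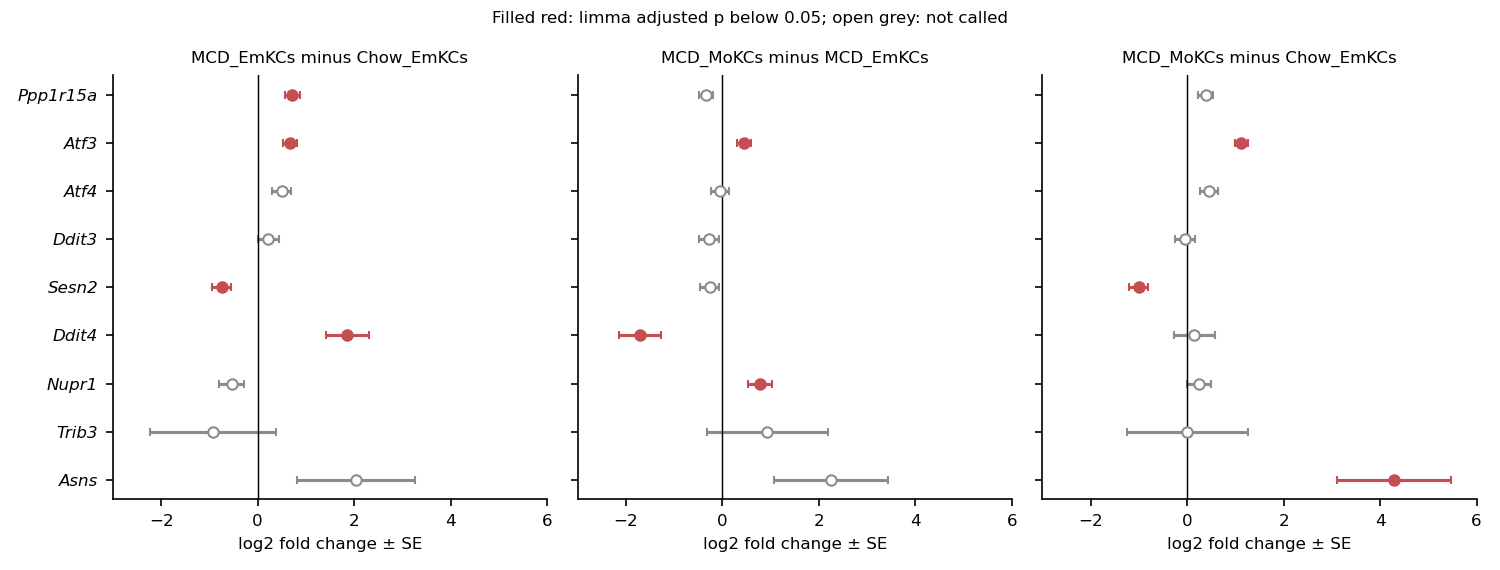
Log2 fold changes with SE for the 9 tested genes in the 3 comparisons, filled red where limma's adjusted p was below 0.05. Atf3 lies above 0 and is filled in all 3 panels, and Ddit4 lies at 1.86 in the first and at -1.71 in the second.

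Among the transcription factors, Atf3 stepped up from group to group. ATF3 is a stress-induced bZIP protein that dampens inflammatory genes in macrophages, and its gene (ENSMUSG00000026628) lies at chr1:191170296-191218039 on the minus strand of mm10, in the GENCODE M21 annotation used for all gene positions here. Its level ran from 6546 to 13859 normalised reads in Chow_EmKCs (median 8680), from 11898 to 16417 in MCD_EmKCs (median 15529) and from 17528 to 23359 in MCD_MoKCs (median 20326). Every MCD_MoKCs library was above every embryo-derived one, while the lowest MCD_EmKCs library lay below the highest Chow_EmKCs library. The means were 9591 ± 2713 (SD, n = 6), 14876 ± 1670 (n = 6) and 20351 ± 2073 (n = 7). MCD_EmKCs exceeded Chow_EmKCs 1.55-fold, with a log2 fold change of 0.67 (SE 0.15) and a limma adjusted p of 0.00617. MCD_MoKCs exceeded MCD_EmKCs 1.37-fold (0.45, SE 0.14, adjusted p 0.0368). The ratio of MCD_MoKCs to Chow_EmKCs was 2.12 (log2 fold change 1.12, SE 0.14, adjusted p 1.22e-06). This last call held whichever of the 19 libraries was left out, with adjusted p of at most 7.54e-06.

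Within the sets of library numbers the rise of Atf3 between Chow_EmKCs and MCD_EmKCs was 0.48 (adjusted p 0.392) in the lower set and 0.87 (adjusted p 0.0061) in the higher set. Between the MCD groups it was 0.54 and 0.33 in the lower and higher sets, neither past the threshold (limma adjusted p 0.145 and 0.351). Against MCD_EmKCs, MCD_MoKCs libraries 1 to 3 alone gave 0.58 (adjusted p 0.0463) and libraries 4 to 7 alone gave 0.36 (adjusted p 0.264). The call between the MCD groups was also lost when any of 8 libraries was left out (MCD_EmKCs 2, 4 or 6, or MCD_MoKCs 1, 2, 3, 5 or 6), with adjusted p from 0.0502 to 0.0965. Against Chow_EmKCs the difference of MCD_MoKCs passed in both sets, at 1.02 (adjusted p 0.00369) and 1.19 (adjusted p 0.000288).

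Atf4 itself did not pass in any comparison. The gene of the pathway's central factor (ENSMUSG00000042406) lies at chr15:80255184-80257541 on the plus strand. It was at 1457 to 2322 normalised reads in Chow_EmKCs (median 2143), 2008 to 3712 in MCD_EmKCs (median 3201) and 1946 to 4447 in MCD_MoKCs (median 2727). In MCD_EmKCs 4 libraries were at 2902 or above and the other two were inside the chow range. The log2 fold changes were 0.50 (SE 0.19, adjusted p 0.166) for MCD_EmKCs and 0.46 (SE 0.18, adjusted p 0.0962) for MCD_MoKCs against Chow_EmKCs. Between the MCD groups the value was -0.04 (SE 0.18, adjusted p 0.923). Without MCD_MoKCs 4, the lowest of its group, the value against Chow_EmKCs was 0.54 and the limma adjusted p 0.0451.

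Ddit3, which encodes CHOP, the bZIP partner of C/EBP proteins linked to cell death in prolonged stress, did not pass in any comparison either. Its gene (ENSMUSG00000025408, chr10:127290774-127296288, plus strand) was at 544 to 1102 normalised reads in Chow_EmKCs (median 750), 719 to 1096 in MCD_EmKCs (median 885) and 494 to 1104 in MCD_MoKCs (median 774). All 3 ranges overlapped over most of their length. The log2 fold changes were 0.22 (SE 0.22), -0.27 (SE 0.21) and -0.05 (SE 0.21) in the order of the comparisons above, with limma adjusted p of 0.673, 0.475 and 0.906. Exons of Ddit3 overlap those of Mars on the opposite strand, which was at a similar level (727, 658 and 741 normalised reads on average), and the strand of the libraries is not stated, so reads from the overlap cannot be told apart. Another identifier with the Ddit3 symbol at the same place was not among the gene identifiers of the expression table.

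Nupr1, a small nuclear protein that binds chromatin factors under stress, had its lowest mean in MCD_EmKCs. The gene (ENSMUSG00000030717, chr7:126623249-126630861, minus strand) had 357 to 647 normalised reads in Chow_EmKCs (median 546), 208 to 673 in MCD_EmKCs (median 336) and 452 to 896 in MCD_MoKCs (median 646). In MCD_EmKCs 4 of 6 libraries lay under all Chow_EmKCs libraries, and the highest of the other two, library 2, lay above them. MCD_MoKCs exceeded MCD_EmKCs 1.64-fold (635 ± 145, SD, n = 7, against 388 ± 164, n = 6), with a log2 fold change of 0.78, SE 0.25 and a limma adjusted p of 0.0440. That call was lost without any 1 of 11 of the 19 libraries (Chow_EmKCs 2 or 6, MCD_EmKCs 1, 3, 5 or 6, or MCD_MoKCs 1, 3, 4, 5 or 6), with adjusted p from 0.0511 to 0.112. It did not pass in either set of library numbers, where the value was 0.72 (adjusted p 0.300) and 0.91 (adjusted p 0.232), nor with MCD_MoKCs libraries 1 to 3 (0.62) or 4 to 7 (0.90) alone. The other differences were -0.53 (SE 0.26, adjusted p 0.307) for MCD_EmKCs and 0.24 (SE 0.25, adjusted p 0.587) for MCD_MoKCs against Chow_EmKCs.

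**Figure D3:**
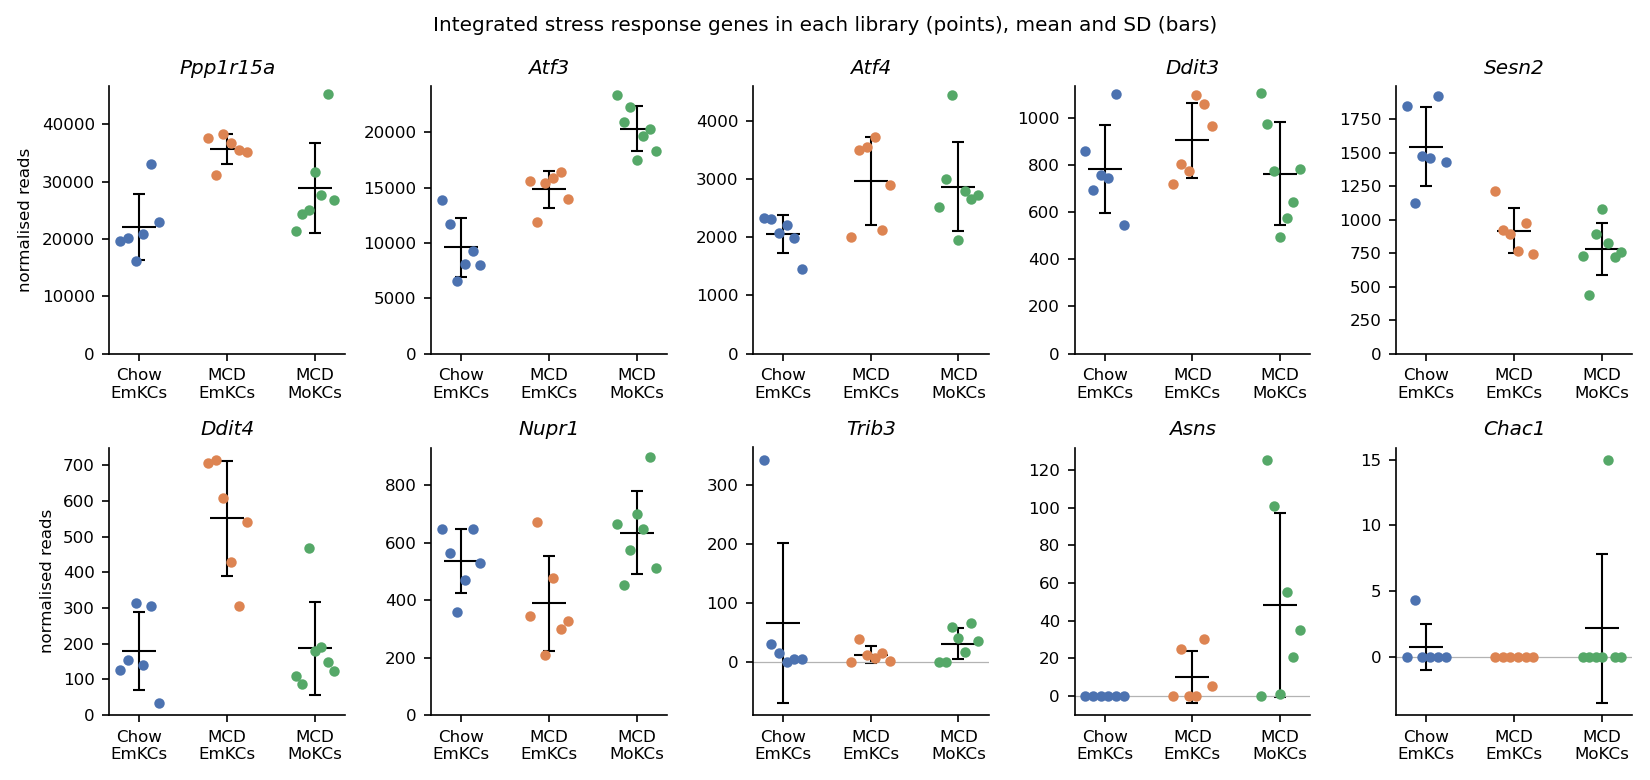
Normalised reads of the 10 genes in each library (points) of Chow_EmKCs, MCD_EmKCs and MCD_MoKCs, with the mean and SD (bars), each panel on its own linear axis. All 7 MCD_MoKCs points of Atf3 are at 17528 or above, Ddit4 is at 307 or more in MCD_EmKCs, and single libraries stand apart for Trib3, Chac1, Atf4, Ddit4 and Ppp1r15a.

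The feedback arm is represented by Ppp1r15a, whose product GADD34 brings protein phosphatase 1 to eIF2alpha and restores translation, and by Trib3, a pseudokinase that binds ATF4 and CHOP. Ppp1r15a (ENSMUSG00000040435, chr7:45522916-45526268, minus strand) was at 16213 to 33045 normalised reads in Chow_EmKCs (median 20540), 31093 to 38319 in MCD_EmKCs (median 36137) and 21455 to 45247 in MCD_MoKCs (median 26867). Only 1 Chow_EmKCs library, number 5, reached the range of MCD_EmKCs, and the other 5 were at 22993 or below. In MCD_MoKCs 5 of 7 libraries were below all MCD_EmKCs libraries, and library 6 was above all of them. MCD_EmKCs exceeded Chow_EmKCs 1.61-fold (35737 ± 2585, SD, n = 6, against 22164 ± 5769, n = 6), with a log2 fold change of 0.72, SE 0.16 and a limma adjusted p of 0.00577. The call held without each library in turn. It was 0.93 (adjusted p 0.00784) in the lower and 0.51 (adjusted p 0.231) in the higher set of library numbers.

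For MCD_MoKCs the Ppp1r15a differences were -0.34 (SE 0.15, adjusted p 0.161) against MCD_EmKCs and 0.38 (SE 0.15, adjusted p 0.0876) against Chow_EmKCs, and whether they passed depended on which libraries entered. Without MCD_MoKCs 6 the first was -0.46 with a limma adjusted p of 0.0273. Without Chow_EmKCs 5 the second was 0.50 (adjusted p 0.0137), and without MCD_MoKCs 1 it was 0.44 (adjusted p 0.0458). Within the sets of lower and higher library numbers the Ppp1r15a difference was -0.46 (limma adjusted p 0.0893) and -0.038 (adjusted p 0.966) against MCD_EmKCs, and 0.47 (adjusted p 0.0672) and 0.47 (adjusted p 0.231) against Chow_EmKCs. With a term for the set the latter was 0.44 (adjusted p 0.0245). With MCD_MoKCs libraries 1 to 3 alone the Ppp1r15a differences were -0.60 (adjusted p 0.0194) and 0.12 (adjusted p 0.685) against these groups, and with libraries 4 to 7 alone they were -0.15 (adjusted p 0.722) and 0.57 (adjusted p 0.0219). MCD_MoKCs libraries 1 to 3 held 21455 to 25005 normalised reads and libraries 4 to 7 held 26867 to 45247, with no overlap. Exons of Ppp1r15a overlap those of Tulp2 on the opposite strand, and reads there cannot be told apart. Tulp2 was at 8844 ± 1802 (n = 6), 10713 ± 538 (n = 6) and 10385 ± 1564 (n = 7) normalised reads in the order of the groups and was not called in any comparison. The ratio of Ppp1r15a to Tulp2 was 2.09 to 2.74 in Chow_EmKCs, 3.11 to 3.48 in MCD_EmKCs and 2.40 to 3.39 in MCD_MoKCs.

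Trib3 (ENSMUSG00000032715, chr2:152337422-152344032, minus strand) was barely expressed apart from 1 library. Chow_EmKCs 1 held 342 normalised reads, and the other 5 chow libraries held 0 to 29.8. The values ran from 0 to 38.6 in MCD_EmKCs (median 8.89) and from 0 to 65.7 in MCD_MoKCs (median 36.2). No comparison passed. On the log2 scale the differences were -0.93 (SE 1.31), 0.93 (SE 1.26) and 0.01 (SE 1.26), at limma adjusted p of 0.792, 0.723 and 0.999. Listed hepatocyte markers summed to 16010 normalised reads in Chow_EmKCs 1 and to 16354 in Chow_EmKCs 6, where Trib3 was at 5.84. The part of hepatocyte RNA in the Trib3 values was not tested.

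Both mTOR brakes of the set moved, in opposite directions under the diet. Ddit4 encodes REDD1, which restrains mTORC1 in energy, oxygen and glucocorticoid stress (ENSMUSG00000020108, chr10:59949669-59951834, minus strand). It was at 35.0 to 313 normalised reads in Chow_EmKCs (median 147), 307 to 715 in MCD_EmKCs (median 574) and 87.1 to 466 in MCD_MoKCs (median 148). In MCD_EmKCs 5 of 6 libraries exceeded all chow libraries, and 6 of 7 MCD_MoKCs libraries were below all MCD_EmKCs libraries, library 3 being the exception. MCD_EmKCs exceeded Chow_EmKCs 3.07-fold (551 ± 160, SD, n = 6, against 179 ± 109, n = 6), with a log2 fold change of 1.86, SE 0.45 and a limma adjusted p of 0.0143. In MCD_MoKCs the mean was 186 ± 129 (n = 7), 0.338 times that of MCD_EmKCs (log2 fold change -1.71, SE 0.43, adjusted p 0.00923). Against Chow_EmKCs it was 1.04 times as high (0.15, SE 0.43, adjusted p 0.869).

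Both Ddit4 calls held without each library in turn. Their size was alike in the 2 sets of library numbers, although with fewer libraries 1 of the 4 values passed the threshold. The rise under MCD was 1.88 (adjusted p 0.125) in the lower and 1.84 (adjusted p 0.174) in the higher set. The fall in MCD_MoKCs was -1.96 (adjusted p 0.0287) and -1.62 (adjusted p 0.288). With MCD_MoKCs libraries 1 to 3 or 4 to 7 alone, that fall was -1.67 (limma adjusted p 0.0667) or -1.74 (adjusted p 0.0221).

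Sesn2 encodes Sestrin 2, a leucine sensor that also holds mTORC1 back when amino acids are short (ENSMUSG00000028893, chr4:132492032-132510501, minus strand). Its levels were 1127 to 1925 normalised reads in Chow_EmKCs (median 1471), 742 to 1212 in MCD_EmKCs (median 908) and 441 to 1081 in MCD_MoKCs (median 760). In MCD_EmKCs only library 1 was above the lowest chow library, and no MCD_MoKCs library reached it. MCD_EmKCs were at 0.595 times the chow mean (919 ± 170, SD, n = 6, against 1546 ± 295, n = 6), with a log2 fold change of -0.75, SE 0.20 and a limma adjusted p of 0.0328. MCD_MoKCs were at 0.504 times that mean (779 ± 195, n = 7, log2 fold change -1.01, SE 0.20, adjusted p 0.00044). The MCD groups did not differ past the threshold (-0.26, SE 0.20, adjusted p 0.463).

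The first of these Sesn2 calls was near the threshold. It was lost when any of 8 libraries was left out (Chow_EmKCs 1, 3, 5 or 6, or MCD_EmKCs 2, 3, 4 or 6), with adjusted p from 0.0513 to 0.0878, and it was -0.54 (adjusted p 0.512) and -0.95 (adjusted p 0.0606) within the sets of library numbers. The call of MCD_MoKCs against Chow_EmKCs held without each library in turn, and within the sets it was -0.93 (adjusted p 0.0589) and -1.10 (adjusted p 0.0175). Hepatocyte markers moved in the same direction as Sesn2 between groups: 10 of 16 fell in MCD_EmKCs and 16 of 16 in MCD_MoKCs against Chow_EmKCs. Of all genes tested, 1.58% and 8.08% fell in these comparisons. Their summed level was 5769 to 16354 normalised reads in Chow_EmKCs, 1017 to 5134 in MCD_EmKCs and 778 to 1599 in MCD_MoKCs. Within MCD_EmKCs, library 6 had the highest sum (5134) and the lowest Sesn2 (742). In Chow_EmKCs, Sesn2 was highest in libraries 5 (1925) and 1 (1847), with sums of 7594 and 16010. None of the 16 was at 0 in all libraries of a group, and Fgb, Fgg, Serpina3k and Serpina1c were at 0 in 1 or 2 of the 7 MCD_MoKCs libraries. Their part in the Sesn2 result was not tested.

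The metabolic targets were scarce. Asns makes asparagine from aspartate and glutamine and is a classic ATF4 target (ENSMUSG00000029752, chr6:7675169-7693254, minus strand). It had no read in any of the 6 Chow_EmKCs libraries, 0 to 30.2 normalised reads in MCD_EmKCs, with 3 of 6 libraries at 0, and 0 to 126 in MCD_MoKCs (median 35.1), with 1 of 7 at 0. MCD_MoKCs 2 and 3 were the highest, at 126 and 101, and the other 5 were at 55.4 or below. Against Chow_EmKCs the MCD_MoKCs mean of 48.4 ± 48.9 (SD, n = 7) was at least 16.4-fold higher, taking 3 reads per library, or 2.95 normalised reads, as the floor. Asns met the filter only through MCD libraries, so its call is not independent of the filter. The limma adjusted p was 0.0110, and the fitted log2 fold change of 4.29 (SE 1.18) depends on the pseudocount and is no bound. It was 4.09 (adjusted p 0.201) and 4.81 (adjusted p 0.104) within the sets of library numbers, and 4.55 (adjusted p 0.0532) with MCD_MoKCs libraries 1 to 3 alone. The MCD_EmKCs mean of 9.99 ± 13.8 (n = 6) rested mainly on libraries 2 and 5, at 24.6 and 30.2. Its difference from Chow_EmKCs was not called by limma (adjusted p 0.443), and DESeq2 on the recovered reads gave an adjusted p of 0.0188. The MCD groups did not differ past the threshold (2.25, SE 1.18, adjusted p 0.260).

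Chac1, which degrades glutathione, was not detected in most libraries. The gene (ENSMUSG00000027313, chr2:119351229-119354381, plus strand) had no read in 17 of 19 libraries, 4.34 normalised reads in Chow_EmKCs 2 and 15.0 in MCD_MoKCs 5, the latter from 16 reads. A count of 0 allows up to 3 reads, which is 1.73 to 4.99 normalised reads depending on the library, for counting error only. No difference in Chac1 was detectable at this depth.

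Genes known to respond to cell isolation also rose under MCD in embryo-derived cells, beside Ppp1r15a and Atf3. Of the 14 listed that were tested, 6 rose between Chow_EmKCs and MCD_EmKCs (Nr4a1, Dusp1, Egr1, Jun, Ier2 and Jund) and none fell in limma or edgeR (1 at an unadjusted p under 0.05, and 1 called by DESeq2). Fos was at 0.02 on the log2 scale. Their summed level was 390190 to 555574 normalised reads in Chow_EmKCs, 558779 to 798791 in MCD_EmKCs and 412559 to 623883 in MCD_MoKCs. Chow_EmKCs 5, the highest chow library for Ppp1r15a, had the highest chow sum. MCD_MoKCs 6, the highest of all for Ppp1r15a, had the highest MCD_MoKCs sum. By contrast, MCD_EmKCs 2 had the highest sum of all libraries (798791) and the lowest Ppp1r15a (31093) and Atf3 (11898) of MCD_EmKCs. Between the MCD groups 1 of the 14 rose in MCD_MoKCs (Nr4a1) and 3 fell (Dusp1, Jun and Jund), and 4 rose in MCD_MoKCs against Chow_EmKCs. Over all genes tested the shares called in the 3 comparisons were 4.08%, 10.5% and 16.8%. The part of the isolation genes in the Ppp1r15a and Atf3 results was not tested.

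**Figure D4:**
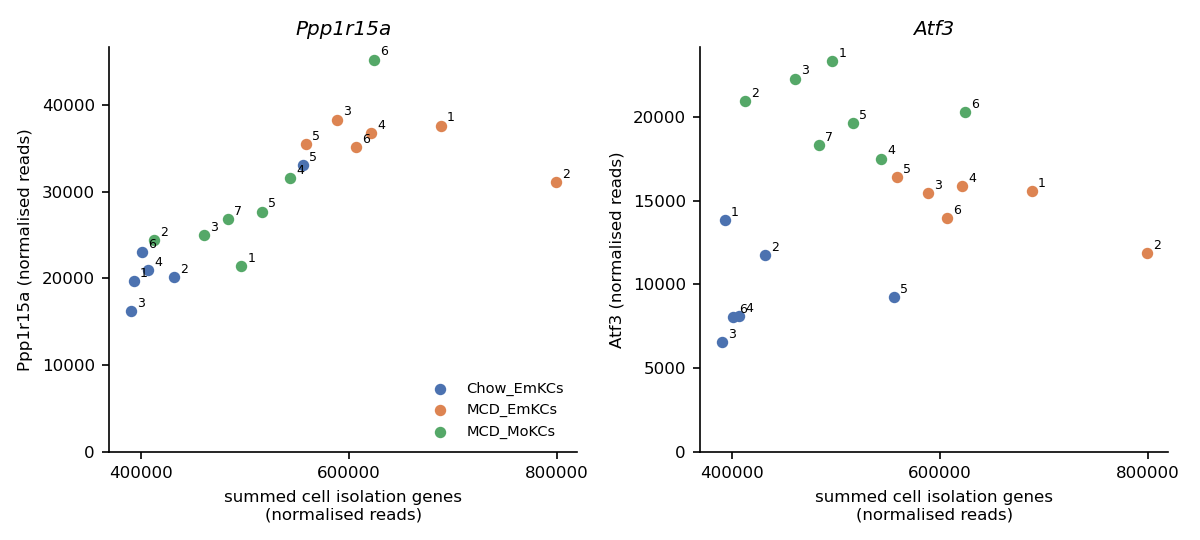
Ppp1r15a (left) and Atf3 (right) in normalised reads against the summed level of 14 cell isolation genes, 1 numbered point per library, coloured by group. Chow_EmKCs 5 and MCD_MoKCs 6 are high on both axes for Ppp1r15a, and all MCD_MoKCs points of Atf3 lie above the embryo-derived points. MCD_EmKCs 2 has the highest summed level and the lowest Ppp1r15a and Atf3 of its group.

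In MCD_MoKCs other markers shifted as well. The counts below are from limma against MCD_EmKCs, where 5.64% of all genes tested were higher and 4.9% lower. Of 12 Kupffer cell markers 11 were lower than in MCD_EmKCs, with sums of 155823 to 203685 against 459061 to 505640 normalised reads. Of 12 monocyte and dendritic cell markers 8 were higher, with sums of 8247 to 12885 against 1845 to 2706, and Ly6c2 was at 0 in all 6 MCD_EmKCs libraries and in 1 MCD_MoKCs library. Of 12 markers of sinusoidal endothelium 6 were higher and 3 lower, with sums of 4864 to 17035 in MCD_MoKCs against 10438 to 11802. Of 11 T and NK cell markers tested 5 were higher, with sums of 1278 to 1900 against 667 to 1019, and Trac was at 0 in all 6 MCD_EmKCs libraries. Of the 6 cholangiocyte markers 2 were tested and 1 was higher (Spp1, which macrophages also make), with sums of 932 to 7323 against 9.74 to 566, while Krt19 was at 0 in all 6 MCD_EmKCs libraries and in 5 of the 7 MCD_MoKCs libraries. Of 5 neutrophil and 4 B and plasma cell markers tested 1 each was higher, with sums of 1688 to 5345 against 2070 to 2927 and of 420 to 774 against 159 to 484. Of 16 hepatocyte markers 2 were lower, and of 8 stellate cell and fibroblast markers tested 0 passed. Higher by edgeR and DESeq2 were 5 and 6 monocyte and dendritic cell, 5 and 5 endothelial and 3 and 3 T and NK cell markers. For neutrophil markers these counts were 0 and 3, and for B and plasma cell markers 0 and 0. The part of these markers in the higher Atf3 and Nupr1 and the lower Ddit4 of MCD_MoKCs was not tested.

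The wider pathway was described with 8 lists of 90 genes, of which 80 were tested. In MCD_EmKCs against Chow_EmKCs 10 rose and 2 fell (15.0% of the 80, median log2 fold change 0.22). The counts were 9 and 4 between the MCD groups (16.2%, median 0.08) and 16 and 6 between MCD_MoKCs and Chow_EmKCs (27.5%, median 0.18). These shares stand beside the 4.08%, 10.5% and 16.8% of all genes given above. The lists were drawn up with results of these data known, so their counts are a description.

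Upstream, among 15 eIF2alpha kinases and eIF2 regulators, Eif2ak3 (PERK, the kinase of the endoplasmic reticulum) rose from 557 ± 125 to 1165 ± 321 normalised reads (n = 6 each) between Chow_EmKCs and MCD_EmKCs. The rise on the log2 scale was 1.05 (SE 0.20, limma adjusted p 0.00212), and every MCD_EmKCs library was above every chow library. Oma1, the mitochondrial protease that relays stress to the kinase HRI, fell in both MCD groups against chow (-0.85, adjusted p 0.0457, and -1.01, adjusted p 0.00284). Eif2ak1, which encodes HRI, was lower in MCD_MoKCs than in MCD_EmKCs (-0.55, adjusted p 0.0408). No other gene of the list passed in limma in any comparison, so the counts were 1 higher and 1 lower, then 0 and 1, and again 0 and 1. In MCD_EmKCs against chow edgeR called 0 of the list lower, and between the MCD groups DESeq2 called 2 lower. The medians were 0.26, -0.16 and 0.16.

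Of 12 bZIP partners of ATF4 and CHOP, 1 rose in MCD_EmKCs against chow, and in MCD_MoKCs 1 rose and 2 fell against MCD_EmKCs and 2 rose and 3 fell against chow (medians 0.07, 0.21 and 0.09). Nfil3, a repressor of the same family, was at 129 ± 60.1 (n = 6), 431 ± 133 (n = 6) and 2327 ± 364 (n = 7) normalised reads in Chow_EmKCs, MCD_EmKCs and MCD_MoKCs. These groups did not overlap, and the log2 fold change from chow was 1.81 (SE 0.28, adjusted p 0.000194) in MCD_EmKCs and 4.29 (SE 0.27, adjusted p 5.81e-12) in MCD_MoKCs. Nfe2l2 (NRF2, the oxidative stress factor) rose in MCD_MoKCs against chow by 0.68, while Cebpg, a partner of ATF4, was lower in MCD_MoKCs than in either other group (-0.64 against MCD_EmKCs and -0.75 against Chow_EmKCs). Cebpd was lower in MCD_MoKCs than in MCD_EmKCs by a log2 fold change of -0.69.

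Of 9 tested amino acid transporters of the ATF4 program, 3 rose in MCD_EmKCs against chow, 2 in MCD_MoKCs against MCD_EmKCs and 5 in MCD_MoKCs against chow, and none passed as lower in limma, edgeR or DESeq2 (medians 0.62, 0.29 and 1.04). At an unadjusted p under 0.05 in limma 1 of the 9 was lower in MCD_MoKCs than in MCD_EmKCs. Slc7a5, the leucine transporter LAT1, was nearly absent from Chow_EmKCs (5.69 ± 8.36 normalised reads, n = 6) and present in MCD_EmKCs (184 ± 48.7, n = 6) and MCD_MoKCs (255 ± 132, n = 7), with a log2 fold change of 5.66 between the embryo-derived groups (SE 0.68, adjusted p 3.65e-06). Slc7a11, the cystine importer, went from 1.36 ± 3.34 and 24.6 ± 31.8 in the embryo-derived groups to 1096 ± 283 in MCD_MoKCs, with a log2 fold change between the MCD groups of 6.56 (SE 0.82, adjusted p 2.56e-06). Their shared heavy chain Slc3a2 rose under MCD in embryo-derived cells (0.50, adjusted p 0.0210), and the glutamine carrier Slc1a5 was higher in MCD_MoKCs than in MCD_EmKCs (1.45, adjusted p 0.00157). Slc7a11 was at 0 in 5 of the 6 Chow_EmKCs libraries and Slc7a5 in 2. Neither could meet the filter without MCD libraries, so the calls of Slc7a5 and Slc7a11, also within the counts above, are not independent of it. Their fitted log2 fold changes also depend on the pseudocount.

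The aminoacyl-tRNA synthetases, which charge tRNAs, are ATF4 targets in many cells. In limma 0 of 12 passed in any of the 3 comparisons, beside 4.08%, 10.5% and 16.8% of all genes tested, and their medians were 0.19, -0.05 and 0.15. At an unadjusted p under 0.05 the limma counts were 3, 0 and 3 of 12. By adjusted p edgeR called 0 in each comparison, and DESeq2 called 0, 0 and 1. The log2 fold changes lay between -0.60 and 0.61.

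Of 10 tested genes for serine, one-carbon and amino acid synthesis, 1 rose and 1 fell in each of the comparisons with MCD_EmKCs, and 2 rose and 2 fell in MCD_MoKCs against chow (medians 0.10, 0.56 and -0.17). These are limma counts. In MCD_EmKCs against chow edgeR called 0 higher and 1 lower. In MCD_MoKCs against chow edgeR and DESeq2 each called 1 higher and 1 lower. The mitochondrial folate enzyme Mthfd2 rose in both MCD groups against chow (1.67, adjusted p 0.0280, and 2.26, adjusted p 0.000318). Shmt2, which acts in the same mitochondrial cycle, fell in MCD_EmKCs (-1.01, adjusted p 0.0199) and was higher in MCD_MoKCs than there (0.86, adjusted p 0.0226). Psat1 of serine synthesis rose in MCD_MoKCs against chow (89.7 ± 68.9, n = 7, against 13.8 ± 32.8, n = 6), and the transaminase Gpt2 was lower in MCD_MoKCs than in either other group.

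Of 7 secreted and death-related targets tested, 2 rose in MCD_EmKCs against chow, 2 in MCD_MoKCs against MCD_EmKCs and 4 in MCD_MoKCs against chow, and none fell in limma, edgeR or DESeq2 (medians 0.44, 0.13 and 0.55). At an unadjusted p under 0.05 in limma 1 of the 7 was lower in MCD_MoKCs than in MCD_EmKCs. Gdf15, a secreted stress hormone, was at 582 ± 77.3 (n = 6), 5949 ± 394 (n = 6) and 16182 ± 1529 (n = 7) normalised reads, without overlap between groups. Vegfa rose in MCD_EmKCs (2.75, adjusted p 0.00986) and was higher again in MCD_MoKCs than there (3.41, adjusted p 0.000328). The pro-apoptotic Bcl2l11 rose in MCD_MoKCs against chow (1.39, adjusted p 0.00423).

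Among 9 autophagy genes the counts of higher genes were 1, 2 and 2 and none fell in limma or edgeR (medians 0.01, 0.12 and 0.00). In MCD_EmKCs against chow 1 was lower at an unadjusted p under 0.05, and DESeq2 called 1 lower. The cargo receptor Sqstm1 rose in both MCD groups against chow (0.55 and 0.84). Gabarapl1 and Wipi1 were higher in MCD_MoKCs than in MCD_EmKCs (0.79 and 1.91, limma adjusted p 0.00933 and 0.0332). Between the MCD groups edgeR called 1 of the 9 higher. Of 6 tested genes among translation and mTOR brakes and paralogues of the members, 1 rose in each comparison (medians -0.14, 0.24 and 0.00). None fell in limma or edgeR, and DESeq2 called 1 lower in MCD_EmKCs against chow. Trib1, the paralogue of Trib3, was at 624 ± 220 (n = 6) normalised reads in Chow_EmKCs and rose in both MCD groups (1.22, adjusted p 0.00316, and 1.47, adjusted p 4.79e-05). Sesn3, the paralogue of Sesn2, had no read in any MCD_EmKCs library and was at least 10.5-fold higher in MCD_MoKCs (30.7 ± 28.3, n = 7, adjusted p 0.0148) against a floor of 3 reads per library. It met the filter without any MCD_EmKCs library, so this call is not independent of the filter. Against Chow_EmKCs the Sesn3 log2 fold change was -2.20 in MCD_EmKCs and 1.90 in MCD_MoKCs, neither past the threshold in limma.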

How the data were processed

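RNA of 19 sorted Kupffer cell samples was amplified by Smart-seq, per the labels' protocols. The authors deposited 1 table whose values are a normalised read signal: in each library they were whole multiples of 1 step for 100.0% of values, within 0.001 reads, so dividing by the step gave reads. STAR, DESeq2 and the build mm10 are named in the submitters' processing notes, with no version, and the sources used here name neither a counting tool nor an annotation. Reads carry no molecular identifiers, so floors cover counting error only. Samples were grouped by title.

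limma 3.58.1 (R 4.3.3, with trend and robust variance) was fitted to log2(value + 1) of 14875 genes with at least 10 in at least 6 libraries. All 19 libraries were in 1 fit. Tests were two-sided, p-values were adjusted by Benjamini-Hochberg across every gene tested, and the threshold was 0.05, and fold changes are on that scale, which understates low genes. The script was tested on simulated data. Alternatives were edgeR 4.0.16 (554, 1325 and 2086 genes called), DESeq2 1.42.0 (904, 1846 and 2588), other pseudocounts, filters, scaling and limma settings, a replicate block, a term for library number, subsets and leaving out each library.

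The members and lists were chosen with earlier results of these data known. Named beyond the members are, per pathway list and comparison, at most 3 genes with the smallest p past the threshold. Markers named were chosen as list members or after their values were seen.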

Additional observations from a re-analysis of the deposited data

Results flagged for a closer look

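Of 28 pairs of a member and a group in which values were not all 0, 6 had 1 library far from the others by Dixon's gap criterion, 2 of them for Chac1. Chance gives about 1 in 20 for the other members. Trib3 was at 342 normalised reads in Chow_EmKCs 1, with the next library at 29.8. Ppp1r15a was at 45247 in MCD_MoKCs 6, with the next at 31601. Atf4 and Ddit4 were both highest in MCD_MoKCs 3, at 4447 (next 3007) and 466 (next 191). Chac1 was at 4.34 in Chow_EmKCs 2 and at 15.0 in MCD_MoKCs 5, each the single library of its group with a read. With every other library at 0, any read meets the criterion, so no chance rate applies to Chac1.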

How the results depend on the processing

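For the 10 results of members past the threshold, 278 of 331 alternative values kept the call, 53 lost it and none changed sign. The count of members called in MCD_EmKCs against Chow_EmKCs (4) was 1 within either set of library numbers and 3 to 4 without each library. Between the MCD groups (3) it was 1 with edgeR, 1 without trend and robust estimates, 1 in the lower and 0 in the higher set of library numbers, 1 with MCD_MoKCs 4 to 7 only, and 1 to 3 without each library (1 without MCD_EmKCs 6 or MCD_MoKCs 1, 3 or 5). In MCD_MoKCs against Chow_EmKCs (3) it was 1 in the lower set and 3 to 4 without each library. Over all genes, calls in the lower and higher sets were 179 and 263 (main 607), 870 and 565 (main 1568, and 1010 with MCD_MoKCs 4 to 7 only), and 1257 and 1288 (main 2493), where fewer libraries were fitted.

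Deviations of same-numbered libraries correlated at -0.07 to 0.08, and 0 of 6 pairs exceeded 0.1 in each comparison. In the 3 comparisons 2, 2 and 3 of 6 libraries correlated best with their own number. These values cover title numbers only and cannot show whether libraries of other numbers came from the same animals. With the replicate block the members called were 4, 3 and 3.

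Signs turned only for uncalled members, and the cause was not tested. In MCD_EmKCs against Chow_EmKCs, Ddit3 was -0.00048 in the lower set and Trib3 0.98 in the higher. Between the MCD groups, Atf4 was -0.16 to 0.042 without each library, and with MCD_MoKCs 1 to 3 only Atf4, Ddit3 and Trib3 were 0.17, 0.076 and -0.92. In MCD_MoKCs against Chow_EmKCs, Trib3 was -0.078 with pseudocount 0.5, -0.0085 with TMM, -1.09 with edgeR and -1.09 with DESeq2, -0.23 with the replicate block, -0.12 with the library number term, -2.73 in the lower set, -1.84 with MCD_MoKCs 1 to 3 only and -0.76 to 0.93 without each library. There Ddit4 was -0.081 in the lower set and -0.25 to 0.37 without each library, and Ddit3 was -0.15 to 0.051 without each library and 0.30 with MCD_MoKCs 1 to 3 only. Chac1, Asns and Trib3 were low or at 0 in many libraries, and the part of sequencing depth in this was not tested.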
